A study of Arabidopsis thaliana with 6 samples.

Results

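The short arm of chromosome 4 in *Arabidopsis thaliana* Col-0 carries a heterochromatic knob, an island of condensed, repeat-rich chromatin set inside a gene-rich arm. Small RNA (sRNA) clusters are stretches of the genome in which sequenced sRNA aligned together, and they were assigned to the knob and its borders when they lay on chromosome 4 and started at or after 1.5 Mb and before 2.3 Mb (TAIR10). This position alone chose 171 of the 17131 clusters of the series, or 171 of the 2795 on chromosome 4. The background was the 2050 clusters of the chromosome 4 arms, and the 574 clusters starting between 2.8 and 5.5 Mb, here called the pericentromere, served as a second reference.

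Libraries came from rosette leaves of single plants at bolting, 4 Col-0 wild type and 2 first-generation *msh1* memory plants. *MSH1* is a nuclear gene for a plastid and mitochondrial protein, and memory plants descend from a line in which it had been silenced by RNAi, have lost the transgene and keep an altered growth habit. By the study's methods, wild type plants descended from transformation events that gave no transgene. All plants shared the Col-0 background and 12 h days, and ages were not given in the sources used here. Memory plants of this generation were sibs of 1 parent, so a difference carried by that family and the memory state cannot be told apart. Biological replicates were single plants, and replicate numbers named plants of no known relation between groups.

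In plants, heterochromatin is kept silent in part by RNA-directed DNA methylation. A plant-specific RNA polymerase transcribes repeats, the transcripts are made double-stranded and cut into siRNA, and the siRNA guide new cytosine methylation to matching DNA. The Col-0 knob is rich in transposable elements and old duplications, and active genes lie between them and at its borders. Clusters in such sequence are hard to count exactly, because a short read from a repeat matches several sites. The aligner used here divided such reads with the help of uniquely placed reads nearby.

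The libraries held 7966799 to 18134284 counts, of which 16611 to 36603 fell in the knob, and 151 to 166 of the 171 clusters had at least 1 count in a library. A level of 3 counts in 1 library, taken as the floor of its depth, corresponded to 0.202 to 0.489 CPM. CPM are counts per 1000000 of the TMM-scaled library size. Wild type replicate 1 was the deepest library and memory replicate 2 the shallowest, and no 2 libraries agreed within sampling noise. Rank correlations (Spearman) of knob levels reached 0.863 to 0.921 for pairs of wild type plants, 0.881 for the memory pair and 0.845 to 0.927 for pairs from both groups. These ranges overlapped, and clusters are not independent replicates.

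The label of a heterochromatic knob was first set against the annotation. In the window, pseudogenes took up 33.4% of bases and protein-coding genes 20.8%, with 122 and 77 genes. The arms had 3.09% and 62.9%, and the pericentromere 39.2% and 7.85%. The window thus resembled the pericentromere in its pseudogene content and lay between both references in its gene content. The left end was an exception. The first 100 kb had 63.4% protein-coding and 1.83% pseudogene sequence, as in an arm, whereas pseudogene sequence took up 22.8% or more of every 100 kb interval from 1.6 Mb onward. Pseudogenes of this annotation include much of what is annotated elsewhere as transposable element genes, and a transposon annotation was not used here.

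Clusters covered 71.0% of the 800 kb window, against 19.2% of the arms and 72.9% of the pericentromere. There were 21.4 clusters per 100 kb in the knob, 13.6 in the arms and 21.3 in the pericentromere. Knob clusters were also wide, with a median of 1778 bases and a range of 162 to 22014, compared with a median of 988 bases in the arms and 2216.5 in the pericentromere. Clusters over 10 kb numbered 12 in the knob (7.02%), 9 in the arms (0.439%) and 37 in the pericentromere (6.45%). GC content differed little, with medians of 35.7%, 35.4% and 37.9% in the same order.

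The share of sequence that occurs once in the genome was measured as the percentage of 24-mers of a cluster found at no other site on either strand. Its median was 77.4% in the knob, 96.3% in the arms and 60.6% in the pericentromere, and 45 knob clusters (26.3%) were under 50%. Of the 564101 positions where a 24-mer starts in knob clusters, 146005 (25.9%) held a repeated 24-mer. Among these, 85.8% had a copy outside chromosome 4, where other chromosomes and organelle genomes were counted together. A copy lay in the chromosome 4 pericentromere for 24.6% and in the rest of chromosome 4 for 11.8%, and 9.61% recurred within the knob alone. Most repeats of the knob were therefore shared with sequence outside chromosome 4 rather than confined to the knob.

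Some sequences show what such clusters contain. Cluster_10972 had the lowest p against memory and Cluster_10935 had reads in all wild type libraries and none in memory. The central 300 bases of each are given on the plus strand, with capitals for bases covered by a 24-mer that occurs more than once in the genome.
Cluster_10972, chr4:1900926-1901225: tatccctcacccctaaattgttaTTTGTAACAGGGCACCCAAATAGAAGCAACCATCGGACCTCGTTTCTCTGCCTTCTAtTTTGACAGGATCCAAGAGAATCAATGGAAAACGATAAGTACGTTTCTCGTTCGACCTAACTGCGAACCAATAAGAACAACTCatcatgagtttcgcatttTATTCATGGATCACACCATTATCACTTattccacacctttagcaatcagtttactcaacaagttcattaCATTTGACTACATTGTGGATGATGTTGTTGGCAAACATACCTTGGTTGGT
Cluster_10935, chr4:1735318-1735617: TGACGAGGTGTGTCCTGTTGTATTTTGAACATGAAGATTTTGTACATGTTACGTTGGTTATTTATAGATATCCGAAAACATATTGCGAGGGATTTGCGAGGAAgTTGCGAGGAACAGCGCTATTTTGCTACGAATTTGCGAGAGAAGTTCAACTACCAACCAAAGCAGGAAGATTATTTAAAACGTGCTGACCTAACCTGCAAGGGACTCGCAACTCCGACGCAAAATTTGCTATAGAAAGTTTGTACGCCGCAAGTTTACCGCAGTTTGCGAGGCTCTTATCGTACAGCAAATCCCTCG
Repeated 24-mers covered 72% of the stretch of Cluster_10972 and 99.7% of that of Cluster_10935, and GC content was 39.3% and 43%.

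The cluster with the highest level per kb lay at a small RNA gene of the left border. This was Cluster_10889 (chr4:1520714-1521009), which spans a tRNA-Phe gene, AT4G03435. It is shown whole, with capitals as above, beside Cluster_10895 (chr4:1535394-1535650), which spans most of the microRNA gene *MIR447b*.
Cluster_10889: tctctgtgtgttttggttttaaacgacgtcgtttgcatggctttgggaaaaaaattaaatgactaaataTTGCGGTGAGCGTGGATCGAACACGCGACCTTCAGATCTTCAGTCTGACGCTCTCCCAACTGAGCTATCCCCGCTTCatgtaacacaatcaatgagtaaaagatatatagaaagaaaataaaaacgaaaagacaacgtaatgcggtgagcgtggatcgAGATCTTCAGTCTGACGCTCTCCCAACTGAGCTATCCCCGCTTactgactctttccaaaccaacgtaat
Cluster_10895: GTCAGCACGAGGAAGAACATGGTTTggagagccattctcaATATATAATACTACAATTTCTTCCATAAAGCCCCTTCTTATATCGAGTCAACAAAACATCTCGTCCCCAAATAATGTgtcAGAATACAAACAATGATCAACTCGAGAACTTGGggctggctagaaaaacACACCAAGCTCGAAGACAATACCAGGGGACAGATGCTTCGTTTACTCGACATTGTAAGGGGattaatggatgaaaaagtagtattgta
Repeated sequence made up 40.5% of Cluster_10889 and 76.3% of Cluster_10895. The tRNA gene lies on the minus strand at 1520784 to 1520856, within the first run of capitals, and its 73 bases occur at 15 sites of the genome.

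The knob was compared with the arms to see how much sRNA it carried for its size. Counts per kb of window were lower in the knob than in the arms in 6 of 6 libraries, with ratios of 0.769 to 0.954 and a geometric mean of 0.880 (exact sign-flip test over 6 libraries, two-sided p = 0.03125, the smallest it can give). Relative to the pericentromere the knob was higher in 6 of 6 libraries, 1.04- to 1.36-fold with a geometric mean of 1.13 (exact sign-flip test, p = 0.03125). Adjustment over the 6 such tests left each p at 0.03125. Since clusters cover more of the knob than of the arms, the same was done per kb of cluster. Per kb of cluster, the knob stood at 0.207 to 0.257 of the arm level (geometric mean 0.237; exact sign-flip test, p = 0.03125) and at 1.06 to 1.40 of the pericentromeric level (1.16; exact sign-flip test, p = 0.03125). The ratio per kb of window rested in part on a few strong clusters and on the left border. The ratio was 0.517 without the 10 knob clusters with the most counts. No arm clusters were removed alike, so this ratio could only fall and is no fair comparison with the arms. For the window from 1.6 to 2.2 Mb the ratio was 0.634 (exact sign-flip test, p = 0.03125). When arm clusters from 2.3 to 6.0 Mb were left out, the ratio per kb of window was 0.936, with 0.801 to 1.03 in single libraries, and the test no longer passed (exact sign-flip test, p = 0.09375).

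The typical cluster gave a clearer order. Its level, the median over clusters of counts per 1000000 of the library total per kb, was 1.41, 2.33, 2.06 and 2.02 in the knob of wild type replicates 1 to 4, and 1.95 and 1.24 in memory. In the arms it ranged from 3.29 to 5.34 over the 6 libraries, and in the pericentromere from 0.586 to 0.927. In each of the 6 libraries the knob median lay between the arm and pericentromere medians. Single knob clusters spread widely around their median. The knob median was 0.348 to 0.435 of the arm median (geometric mean 0.401) and 1.99 to 2.78 times the pericentromeric median (2.33), each with p = 0.03125 in the exact sign-flip test. A typical knob cluster was thus denser in reads than a pericentromeric one and sparser than an arm cluster. The memory and wild type ranges overlapped in the knob.

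**Figure D1:**
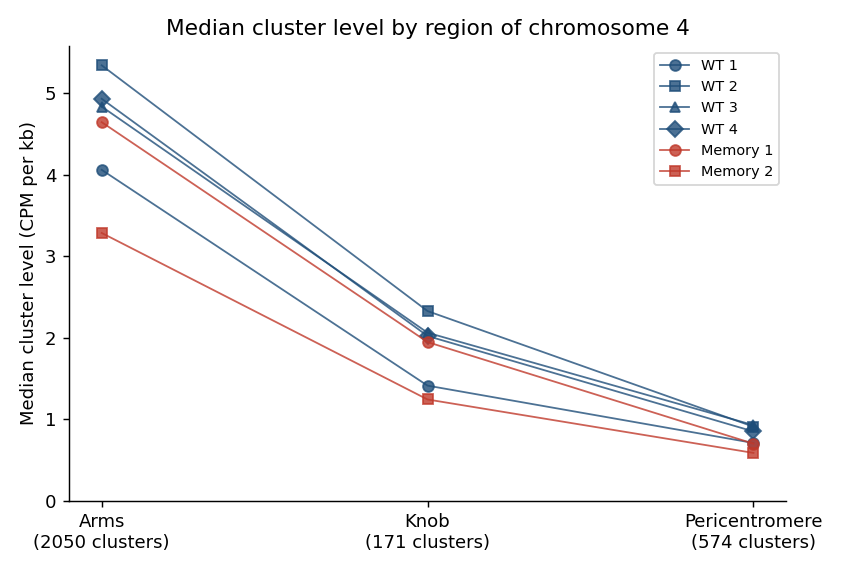
Median level of a cluster in the arms, the knob and the pericentromere of chromosome 4 (y axis, counts per 1000000 of the library total per kb of cluster), with 1 line per library. In each of the 6 libraries the knob (1.24 to 2.33) lay between the arms (3.29 to 5.34) and the pericentromere (0.586 to 0.927).

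The knob was not uniform along its length. Summed over clusters of each 100 kb, wild type levels were highest in the first, gene-rich interval, 641.5 ± 39.0 CPM (SD, n = 4), and lowest in the next, 93.3 ± 33.2 CPM (SD, n = 4), although clusters covered 38.8% of the first and 82.0% of the second. The interval from 1.9 to 2.0 Mb reached 469 ± 33.1 CPM and the last one, from 2.2 to 2.3 Mb, 424 ± 19.8 CPM. The intervals in between stood at 156 to 221 CPM. Memory had 819 ± 288 CPM (SD, n = 2) in the first interval, from 616 in replicate 1 and 1023 in replicate 2. In the intervals from 1.7 to 1.8, 1.8 to 1.9 and 1.9 to 2.0 Mb both memory values lay below all 4 wild type values, with means of 125, 172 and 411 CPM against 156, 203 and 469 CPM. For each of these intervals the exact two-sided permutation test gave p = 0.133, the smallest possible with 2 and 4 libraries, and 0.356 after adjustment over the 8 intervals.

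**Figure D2:**
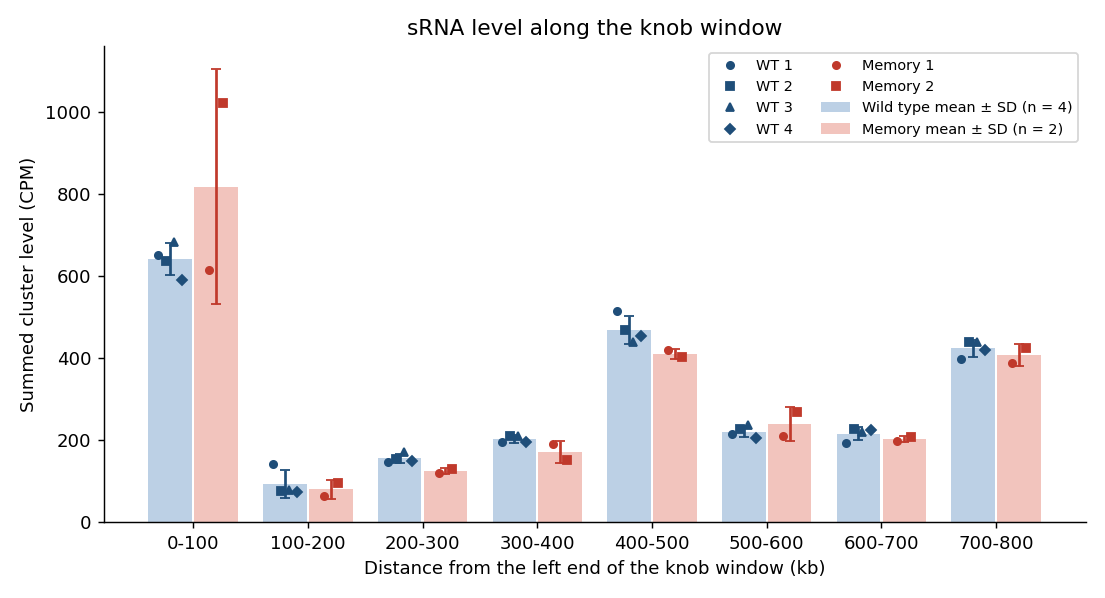
Summed CPM of the clusters in each 100 kb interval (y axis) against distance from the left end of the knob window in kb (x axis), with bars for group means, error bars for SD (n = 4 wild type, n = 2 memory) and points for libraries. The first interval is highest (641.5 CPM in wild type) and the next lowest (93.3 CPM), and the spread between memory libraries is widest in the first.

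Clusters were also grouped by the annotated class that overlapped them by the most bases, however few. Any cluster at a small RNA gene (tRNA or miRNA) was placed in a class of its own. Only clusters that no annotated gene overlapped counted as sequence without annotation. Cluster_10970, with 18 of its 1690 bases in a protein-coding gene, thus counted as protein-coding. Pseudogenes were the main class, with 78 clusters, 421176 bases and 45.8% of the knob CPM. Protein-coding genes had 39 clusters with 20.04% of CPM, sequence without annotation 40 with 19.2%, and long noncoding genes 8 with 4.62%. The 6 clusters at small RNA genes held 10.3% of CPM on 6843 bases. By median level per kb they reached 40.1 CPM, against 4.05 at protein-coding genes, 3.31 in sequence without annotation, 3.28 at long noncoding genes and 1.07 at pseudogenes. Pseudogene clusters were thus the most widespread and the least dense.

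A few clusters carried much of the signal. The top cluster held 6.46% of knob CPM, the top 8 together 35.4% and 15 clusters 50%. Cluster_10885 (chr4:1506597-1508216) lies in sequence without annotation, and its level was 150, 160, 164 and 161 CPM in wild type replicates 1 to 4 and 148 and 160 CPM in memory. Its wild type coefficient of variation (CV) of 0.0375 was among the 3 lowest of clusters with at least 5 CPM, beside Cluster_10963 at a pseudogene (0.03) and Cluster_11042 at a pseudogene (0.0387). Cluster_11044, a 14144-base cluster over 3 pseudogenes that reaches the end of *CRK38*, had 126 ± 6.43 CPM in the wild type plants (SD, n = 4) against 138 ± 23.0 in memory (SD, n = 2). Cluster_11049 over 2 pseudogenes and part of *CRK40* had 112 ± 9.26 and 104 ± 4.54 CPM. Cluster_10984 at *OFP9*, which encodes a transcription repressor of the OVATE family, had 84.6 ± 3.50 and 76.4 ± 14.003 CPM. Cluster_10900, without annotation, had 69.9 ± 5.02 and 76.4 ± 1.67 CPM. In these 5 clusters, Cluster_10900 excepted, the group means differed by less than the larger SD, and none passed the edgeR test (adjusted p of 0.718 to 0.928).

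The widest cluster of the knob was Cluster_10995, which spans 22014 bases over 7 pseudogenes. It had 101, 76.0, 79.3 and 72.0 CPM in wild type and 60.5 and 66.2 in memory, so the groups did not overlap. The log2 fold change was -0.37 with an approximate SE of 0.17, and the edgeR test gave an adjusted p of 0.509. Its level per kb, 3.44 CPM, was far below that of Cluster_10885 at 97.1 CPM per kb. By level per kb the leading clusters were Cluster_10889 (501 CPM), the *MIR447a* cluster (102 CPM) and Cluster_10885, followed by the *MIR447b* cluster (52.0 CPM), Cluster_10988 (45.7 CPM), Cluster_10900 (42.3 CPM), Cluster_10886 (41.5 CPM) and Cluster_10904 at the 3′ end of *TPC1* (39.6 CPM). All but Cluster_10988 lie in the first 100 kb.

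The 3 genes of the miR447 family are neighbours in that border, on the minus strand. miR447 is a microRNA family described in Arabidopsis, and its annotation gives phosphoglycerate kinase-related transcripts as targets. The mature sequences, read from the genome at the annotated positions, are shown with the seed (bases 2 to 8) in capitals because they show which reads the clusters can share.
miR447a-3p: uUGGGGACgagauguuuuguug
miR447b: uUGGGGACgagauguuuuguug
miR447c-3p: uUGGGGACgacaucuuuuguug
All 3 have the seed UGGGGAC. miR447a-3p and miR447b are identical over 22 bases, and this sequence occurs at 2 sites of the genome, while miR447c-3p occurs at 1. The precursors of *MIR447a* and *MIR447b* were 96.2% identical (228 identical positions, 8 mismatches and 1 gap), and *MIR447c* was 75.9% identical to *MIR447a*.

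Counts were divided between *MIR447a* and *MIR447b* in different ways from library to library. Cluster_10892 at *MIR447a* had 368, 237, 566 and 213 counts in wild type replicates 1 to 4 and 297 and 447 in memory. Cluster_10895 at *MIR447b* had 296, 225, 3 and 229 counts in the wild type plants against 305 and 0 in memory. In wild type replicate 3 and memory replicate 2 the *MIR447b* cluster held 0.527% and 0% of the joint counts, and in the remaining libraries 44.6% to 51.8%. Each library low at *MIR447b* was high at *MIR447a*. The joint counts were 664, 462, 569 and 442 in wild type and 602 and 447 in memory. On the CPM scale the sum was 41.5 ± 7.02 in the wild type plants (SD, n = 4) against 59.9 ± 18.4 in memory (SD, n = 2), from 46.9 and 72.9 in the memory libraries and 33.3 to 49.4 in wild type, so the groups overlapped. Alone, *MIR447a* had a log2 fold change of 0.80 and *MIR447b* of -0.23, with edgeR adjusted p of 0.626 and 0.975, and both signs turned without memory replicate 2. The part that placement of identical reads had in this was not tested.

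**Figure D3:**
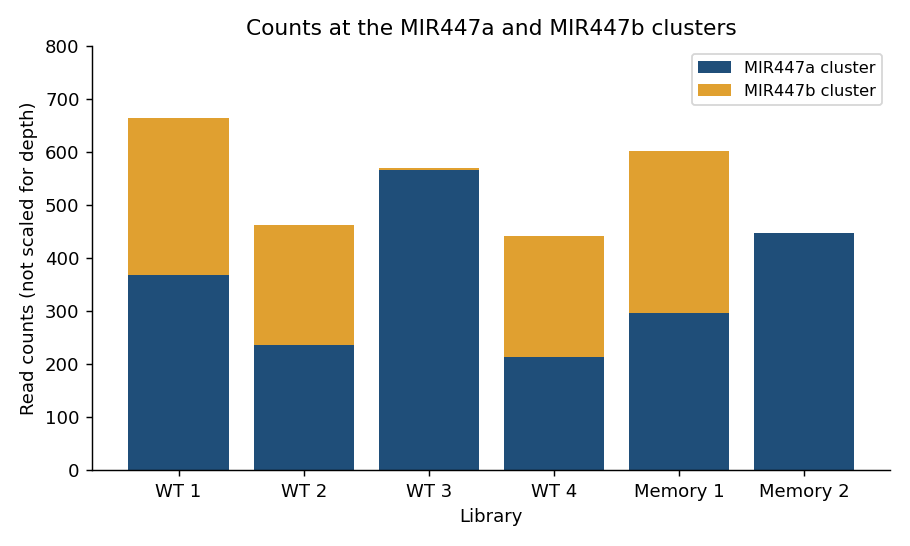
Read counts, not scaled for depth, at the MIR447a (blue) and MIR447b (yellow, stacked) clusters in each of the 6 libraries. Wild type replicate 3 has 566 and 3 counts and memory replicate 2 has 447 and 0, while the other libraries divide their counts nearly evenly.

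The third family member was scarce. Cluster_10891 at *MIR447c* (chr4:1523310-1523471) had 10, 12, 4 and 25 counts in the wild type plants against 25 and 0 in memory, or 1.02 ± 0.813 CPM (SD, n = 4) and 0.974 ± 1.38 CPM (SD, n = 2). A count of 0 in memory replicate 2 allows up to 0.489 CPM. Its unique 24-mers made up 95.7% of the cluster. *MIR841b*, a microRNA gene in the pseudogene-rich part, lies in Cluster_11030, a 5392-base cluster with 44.1 ± 10.8 CPM in wild type and 43.3 ± 19.5 in memory, of which 495 bases are the precursor. How many of those counts come from the microRNA cannot be read from the counts of so wide a cluster. The mature sequences are given since the cluster does not show them.
miR841b-5p: uACGAGCCacuggaaacugaa
miR841b-3p: cAAUUUCUagugggucguauu
The fifth microRNA gene of the window, *MIR3932a*, overlapped no cluster.

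The tRNA-Phe cluster set memory replicate 2 apart. Cluster_10889 had 56.2, 93.4, 129 and 75.6 CPM in wild type and 70.7 and 464 CPM in memory. Memory replicate 1 lay within the wild type range and replicate 2 above it. The log2 fold change was 1.59 (SE 0.68, edgeR adjusted p = 0.487) and turned to -0.33 without memory replicate 2. The same library was highest in the first 100 kb interval, in which this cluster lies. Since the gene has 15 identical copies, the counts here are a part of the tRNA-Phe reads of the library and not a measure of this copy. The other tRNA gene of the border, a tRNA-Gln gene that occurs at 1 site, lies in Cluster_10883 beside *DFL2*, an auxin-responsive GH3 family gene. It had 12.0 ± 4.99 CPM in the wild type plants (SD, n = 4) against 9.80 ± 4.87 CPM in memory (SD, n = 2).

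A group of related clusters was found in the knob when 24-mers were compared between its members. With at least 10% of the 24-mers of the smaller cluster in common, 30 of the 171 clusters formed 52 pairs and 9 groups. The largest group comprised 11 neighbouring clusters, Cluster_10927 to Cluster_10937, which span 46.2 kb from 1695902 to 1742067 and account for 41 of the pairs. Only 1 of them overlapped an annotated gene, a pseudogene. From 11.2% to 46.2% of their 24-mers were unique in the genome. A 24-mer of Cluster_10935, given here on the plus strand, was present in 8 of the 11 clusters, the most that any shared, and at 12 sites of the genome.
Shared 24-mer, chr4:1735522-1735545: ggactcgcaactccgacgcaaaat

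Within this group, counts came and went from library to library. Cluster_10935 had 19, 3, 29 and 27 counts in the wild type plants and 0 in both memory libraries, and Cluster_10930 had 21, 0, 16 and 1 counts in the wild type plants and 0 in both. Cluster_10933 had 15, 35, 23 and 0 counts in the wild type plants against 20 and 0 in memory. Cluster_10928 had 24 counts in memory replicate 1 and 0 in the other 5 libraries. Cluster_10931, the longest of the group, had 78, 68, 79 and 34 counts in the wild type plants against 72 and 9 in memory. Summed over the group, the counts were 223, 178, 187 and 115 in wild type and 135 and 33 in memory, or 13.5 ± 2.69 CPM (SD, n = 4) and 7.95 ± 3.63 CPM (SD, n = 2). The memory values of 10.5 and 5.38 CPM overlapped the wild type range of 10.1 to 16.2 CPM. The group as a whole was thus present in both memory libraries, unlike Cluster_10935. Its part in the values of Cluster_10935 was not tested.

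**Figure D4:**
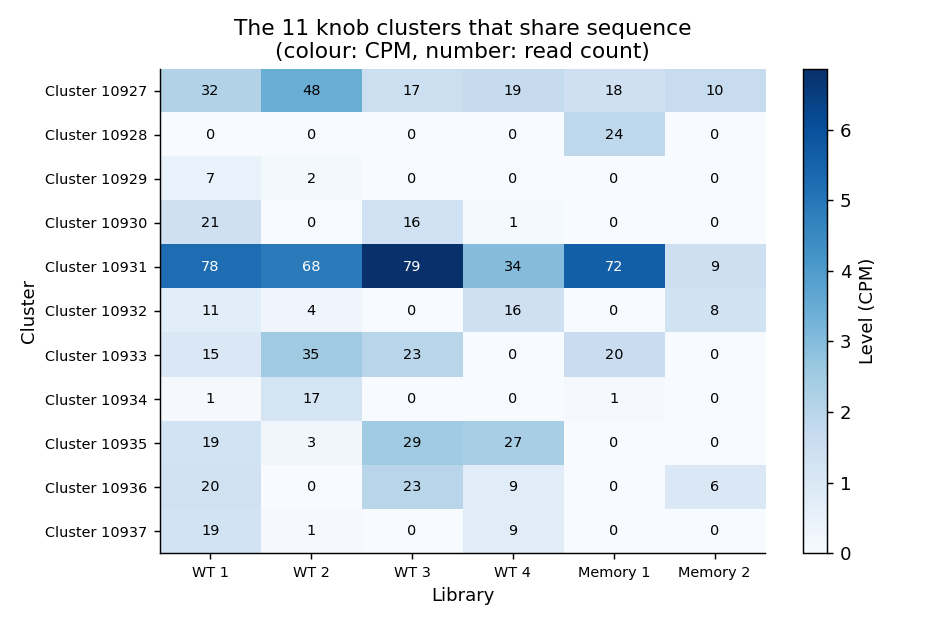
Read counts (numbers) and CPM (colour) of the 11 clusters that share sequence, by library. Cluster_10931 has counts in every library (9 to 79), whereas Cluster_10928 has counts in memory replicate 1 alone and Cluster_10935 only in the 4 wild type libraries.

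The memory plants were then compared with wild type, to see whether the sRNA of the knob differed between them. In whole leaves, fewer cells of a type and less RNA per cell cannot be told apart. The knob share of counts was 0.202%, 0.299%, 0.281% and 0.249% in wild type replicates 1 to 4, and 0.234% and 0.209% in memory. The memory values lay within the wild type range. The means were 0.258% ± 0.0426 (SD, n = 4) and 0.221% ± 0.0181 (SD, n = 2), with a ratio of 0.859 (exact two-sided permutation test, p = 0.4; smallest possible p 0.133). The arms stood at 5.57% ± 0.498 and 4.59% ± 0.393 (exact permutation test, p = 0.133), and the pericentromere at 0.803% ± 0.161 and 0.627% ± 0.155 (exact permutation test, p = 0.267), with ratios of 0.824 and 0.781. The adjusted p of these 3 shares was 0.5. All 3 are shares of unscaled library totals. On the CPM scale the summed knob level was instead slightly higher in memory on average, with replicate 1 below and replicate 2 above all wild type plants.

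Of the 171 clusters, 156 passed the filter on low counts and 15 did not. At an adjusted p below 0.05, 0 knob clusters were called by edgeR, with 1 called by DESeq2. Over all clusters of the series 1 of 15659 was called by edgeR, or 0.00639%. No such share was taken for DESeq2, so its 1 call stands without a background. At an unadjusted p below 0.05, 5 knob clusters were higher and 14 lower in memory, that is 3.21% and 8.97% of those tested, against 4.92% and 5.56% over all clusters. The arms had 116 higher and 91 lower of 1925, and the pericentromere 13 higher and 30 lower of 482. Over all 171 clusters, both memory values lay above the 4 wild type values in 11 (6.43%) and below them in 28 (16.4%), against 9.65% and 11.5% of all clusters in the series. The arms had 11.6% above and 10.7% below, and the pericentromere 4.18% and 11.8%. In both counts more knob clusters were lower than higher, as was also so in the pericentromere, but no single knob cluster was called by edgeR. The split at an unadjusted p below 0.05 depended on single libraries. Without wild type replicate 1 it was 5 higher and 12 lower, and without replicate 2 it was 3 and 13. Without wild type replicate 3 it was 4 and 5, and without replicate 4 it was 2 and 7. Shares over all clusters were not taken for these settings.

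The median log2 fold change of the knob was -0.15, with 53 clusters above 0 and 103 below. It was 0.02 in the arms, -0.17 in the pericentromere and -0.03 over all tested clusters, so the knob resembled the pericentromere. To test the knob against the arms over libraries, the median log2 CPM of knob clusters minus that of arm clusters was taken in each library. It was -0.13 ± 0.09 in the wild type plants (SD, n = 4) against -0.24 ± 0.01 in memory (SD, n = 2), a difference of -0.10 (exact two-sided permutation test, p = 0.4). The groups overlapped, since wild type replicate 1 had -0.26, below the -0.24 and -0.23 of the memory libraries. Against the pericentromere the difference was 0.05 (exact two-sided permutation test, p = 0.533).

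**Figure D5:**
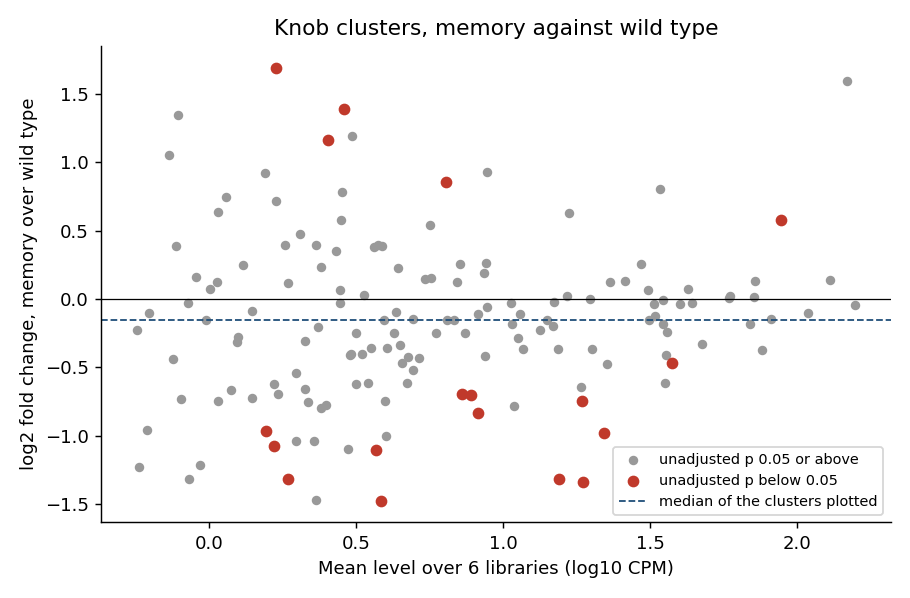
Log2 fold change of memory over wild type (y axis) against mean level (x axis, log10 CPM) for 154 of the 156 tested knob clusters, with the 18 of them at an unadjusted p below 0.05 in red and the median as a dashed line. The 2 tested clusters at 0 in both memory libraries are not drawn, since no fold change can be read for them, and the points scatter around a median slightly below 0.

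Of the lower clusters, Cluster_10972 (chr4:1898643-1903507) had the lowest p in the knob. It spans 4865 bases over 4 pseudogenes, with 48.8% unique 24-mers. It had 22.3, 27.7, 30.7 and 25.1 CPM in wild type and 13.7 and 13.0 CPM in memory, so that every memory value lay well under the lowest wild type value. The log2 fold change was -0.98 (SE 0.18, edgeR adjusted p = 0.294), and DESeq2 called it (log2 fold change -0.96, adjusted p = 0.00549). How many clusters of the series DESeq2 called was not counted. In the alternatives other than DESeq2 the log2 fold change stayed between -1.21 and -0.90, with adjusted p from 0.153 to 0.987.

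The other lower clusters named by rule included 3 at pseudogenes. Cluster_11053 at the pseudogene AT4G04590, at the right end of the window, had 8.41, 10.1, 11.03 and 8.70 CPM in wild type and 4.91 and 5.87 in memory (log2 fold change -0.83, SE 0.24, edgeR adjusted p = 0.438). Cluster_10899 at the pseudogene AT4G03530 had 36.4, 25.3, 18.8 and 13.4 CPM in wild type and 10.99 and 7.50 in memory (log2 fold change -1.34, SE 0.44, edgeR adjusted p = 0.452), and the wild type values themselves were widely spread. Cluster_10912, over 3 pseudogenes, had 1.67 to 3.24 CPM in wild type and 1.01 and 0.815 in memory (log2 fold change -1.31, SE 0.42, edgeR adjusted p = 0.452). In Cluster_10935 of the related group, the wild type mean of 1.597 CPM was at least 4.42-fold higher than memory, taking the mean of the 2 libraries' 3-count floors, 0.361 CPM, as the bound (edgeR adjusted p = 0.44). Of the 14 lower clusters, 7 were at pseudogenes, 4 at protein-coding genes and 3 in sequence without annotation, next to 72, 37 and 33 of the 156 tested clusters, so the classes were represented about as in the knob as a whole.

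The 5 higher clusters were mixed. Cluster_11005, a 20898-base cluster over 5 pseudogenes and 2 long noncoding genes, had 80.1, 80.5, 71.8 and 70.3 CPM in wild type and 87.7 and 139 CPM in memory (log2 fold change 0.58, SE 0.20, edgeR adjusted p = 0.455). Without memory replicate 2 its log2 fold change was 0.21. Cluster_10896, between genes of the ankyrin family, had 1.01 to 2.73 CPM in wild type and 4.21 and 5.54 in memory (log2 fold change 1.39, SE 0.42, edgeR adjusted p = 0.441). Cluster_10897 at *ATHM2*, which encodes a chloroplast thioredoxin, had 3.17 to 6.59 CPM and 8.41 and 9.78 CPM (log2 fold change 0.85, edgeR adjusted p = 0.472). Cluster_10983 at *FIB*, which encodes a plastid fibrillin, had 1.30 to 3.16 CPM in wild type and 4.44 and 3.59 in memory (log2 fold change 1.16, edgeR adjusted p = 0.462). Its neighbour at the same gene, Cluster_10982, had 2.13 ± 1.36 CPM in wild type and 4.89 ± 0.688 in memory (edgeR adjusted p = 0.501). Cluster_10910 at a pseudogene had 0.953 ± 0.458 CPM and 3.14 ± 1.79 CPM (log2 fold change 1.69, edgeR adjusted p = 0.455).

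Of the 77 protein-coding genes that start in the window, 47 (61.0%) overlapped a cluster. The 5 *CRK* genes of the window encode cysteine-rich receptor-like kinases, which act at the cell surface in stress and defence signalling. Clusters lay at 4 of them, 5 clusters in all with 2.80 to 130 CPM, and *CRK37* had none. The highest, Cluster_11044, has 274 of its 14144 bases in *CRK38*, and Cluster_11049 has 656 of its 9592 bases in protein-coding sequence. The level of these 2 is thus not a level of the genes. Of the 5 clusters, Cluster_11041 at *CRK36* had the lowest p. It had 37.2, 35.2, 48.7 and 44.3 CPM in wild type and 32.6 and 27.2 in memory (log2 fold change -0.46, SE 0.19, edgeR adjusted p = 0.462). Cluster_11050 at *CRK40* had 36.4 ± 1.76 and 32.1 ± 5.37 CPM, and Cluster_11046 at *CRK39* had 2.40 ± 0.961 and 3.61 ± 1.36 CPM. Cluster_11046 and Cluster_11050 shared 46.3% of the 24-mers of the first, and a read from such sequence matches both genes. The median log2 fold change of the 5 *CRK* clusters was -0.10, next to -0.03 over all clusters.

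Of the 7 ankyrin repeat genes in the left border, 1 had a cluster, Cluster_10893 at AT4G03450, with 44, 0, 11 and 8 counts in the wild type plants against 8 and 2 in memory, or 1.15 ± 1.27 and 0.475 ± 0.210 CPM. The 7 single genes of the list each had at least 1 cluster, 12 in all. Among them *DFL2* starts before the window and reaches into it only at the end that Cluster_10883 overlaps. *GSL05*, a callose synthase of defence responses, had 2 clusters with 0.695 ± 0.383 and 1.79 ± 0.701 CPM in wild type over most of its length. *TPC1*, a vacuolar cation channel, had Cluster_10903 with 0.833 ± 0.204 CPM inside the gene, and Cluster_10904 at its 3′ end with 71.3 ± 12.7 CPM in wild type and 72.2 ± 1.92 in memory. *PUX4*, which encodes a UBX domain protein, had Cluster_10997 with 7.80, 9.36, 9.21 and 6.94 CPM in wild type and 5.53 and 4.73 in memory (log2 fold change -0.69, edgeR adjusted p = 0.455) and Cluster_10998 with 9.43 ± 2.36 and 7.13 ± 4.68 CPM. *RbcX1*, a chaperone of Rubisco assembly, had Cluster_11016 with 2.46 ± 0.875 and 3.16 ± 0.834 CPM and Cluster_11017 with 3.57 ± 0.175 and 2.31 ± 0.264 CPM. *RLP46*, a receptor-like protein, had Cluster_10999 with 1.04 ± 0.526 and 1.11 ± 0.190 CPM. At the *FIB* gene 1 of 2 clusters, higher in memory, and at *PUX4* 1 of 2, lower in memory, reached an unadjusted p below 0.05. Over all tested clusters of the series 10.5% (1641 of 15659) did so, and so few clusters give no result about these genes. By edgeR 0 of the 12 were called.

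Variation among wild type plants was similar in the knob and the arms. Over clusters with at least 5 CPM, the median CV across the 4 wild type libraries was 0.165 in the knob (72 clusters), 0.167 in the arms (1018 clusters) and 0.191 in the pericentromere (177 clusters). Within the knob the median CV was 0.294 for the 10 clusters with under 50% unique 24-mers, 0.157 for the 41 with 50% to 90% and 0.139 for the 21 with 90% or more, as a description of these libraries. Clusters under 50% unique held 9.08% of knob CPM and those from 50% to 90% held 60.2%. Among the 51 tested clusters with 90% or more unique 24-mers, 2 were higher and 6 lower in memory at an unadjusted p below 0.05, and the lower clusters thus included unique sequence.

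The most variable clusters were each driven by few libraries. Cluster_10884, at PP2C52 and AT4G03410 and wholly unique in sequence, had 691 counts in wild type replicate 1 and 1 to 7 counts in the other 5 libraries. Cluster_10922, a 12551-base cluster over 4 pseudogenes, had 83.1 CPM in wild type replicate 1 and 23.0 to 25.05 CPM in the other wild type plants, and 19.9 and 39.1 CPM in memory. Cluster_10980 at a pseudogene had 0 counts in wild type replicate 3 and 68 to 158 in the other 5 libraries, and Cluster_10978 had 61 to 337 counts in wild type. Outside the rule, and chosen after its values were seen, Cluster_10977 had 203 counts in wild type replicate 2 and 0 elsewhere, and Cluster_10973 had 55 in wild type replicate 1 and 0 elsewhere. Clusters with at least 50 counts and more than 80% of their CPM in 1 library numbered 3 of 153 in the knob (1.96%), 43 of 1975 in the arms (2.18%) and 5 of 472 in the pericentromere (1.06%).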

How the data were processed

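sRNA libraries from rosette leaves of 4 wild type and 2 *msh1* memory plants (TruSeq kit, BGISEQ-500) were aligned singly by the authors to TAIR10 with ShortStack in its align-only mode, and alignments were merged with SAMtools. The authors deposited raw counts of reads per cluster with no scaling. How clusters were defined, which read lengths were counted and the strand were not given in the sources used here, so siRNA and microRNA reads could not be separated. The tables hold 17131 clusters on chromosomes 1 to 5, and all ended within the reference chromosomes. Genes and sequences are from RefSeq TAIR10.1, and the miRNA sequences were read from that genome at annotated positions.

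Counts of all clusters were tested with edgeR 4.0.16 (R 4.3.3; TMM, filterByExpr, quasi-likelihood, group alone) with Benjamini-Hochberg adjustment over the 15659 clusters that passed the filter, and an adjusted p below 0.05 was a call. SE values are approximate. The biological coefficient of variation was 0.491. Shares and intervals were tested with exact permutation tests and regional densities with exact sign-flip tests over libraries (scipy 1.17.1). A cluster was at a gene when at least 1 base overlapped. Log2 CPM used a pseudocount of 0.5. Intervals of shares and floors of 3 counts cover counting error alone, since reads without molecular identifiers are not independent molecules; 95% Wilson intervals of knob shares had a width small beside the spread between plants. The test was tried on counts drawn from the real means, with a spread set by the mean level alone. It called 0 of 15198 clusters where none was changed. Changed clusters were drawn from those with a mean of at least 1 CPM. Of 200 changed 4-fold edgeR recovered 34.5%, with 3 false calls, and of 200 changed 16-fold 92.5%, with 6 false calls. Recovery was not tried for clusters under 1 CPM or with a spread of their own.

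The window, the gene list and the rule for named clusters were chosen with earlier results of these data known. The rule took the 8 largest levels, the 5 highest levels per kb beyond these, the widest cluster, the 5 lowest p in each direction at 1 CPM or more, the 5 largest and 3 smallest wild type CVs at 5 CPM or more, and clusters at a list of genes. Alternatives were RLE, library size alone, no filter, DESeq2 1.42.0, other windows and each replicate left out. Replicate numbers were not paired between groups, since the deviations of same-numbered libraries did not correlate (r of -0.07).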

Additional observations from a re-analysis of the deposited data

Results flagged for a closer look

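In 54 sets of 4 wild type values (named clusters, 100 kb intervals, the knob share and the median level), 7 had a highest library far from the others by Dixon's test, where chance alone flags about 1 in 20 sets. That rate does not hold for Cluster_10884 and Cluster_10922, which were named for their large wild type CVs, nor separately for the interval that contains Cluster_10922. In 6 of the 7 the library was wild type replicate 1. It had 46.5 CPM at Cluster_10884 against a mean of 0.313 CPM in the other 3 plants, 83.1 CPM at Cluster_10922 against 24.3, and 68.6 CPM at Cluster_10988 against 45.2. The 2 *FIB* clusters were also highest there, with 4.17 CPM at Cluster_10982 against 1.45 and 3.16 CPM at Cluster_10983 against 1.33. The interval from 1.6 to 1.7 Mb, which contains Cluster_10922, had 143 CPM in that plant against 76.7 CPM. The remaining set was Cluster_10999 at *RLP46*, with 1.82 CPM in wild type replicate 3 against 0.774 CPM.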

How the results depend on the processing

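With other totals, windows and samples, the knob share in memory relative to wild type stayed below 1, with 0.801 to 0.908 when each replicate was left out. This share is of unscaled library totals and was not recomputed with other scalings. On the CPM scale, memory exceeded wild type on average from 1.5 to 1.6 Mb, with 819 ± 288 against 641.5 ± 39.0 CPM. It also did from 2.0 to 2.1 Mb, with 240 against 221 CPM, and was lower in the other intervals. Summed over all intervals, the memory mean was slightly above the wild type mean. Memory replicate 1 lay below and memory replicate 2 above all wild type plants in this sum. The direction of the knob difference thus depended on the scaling. Over the other scalings, filters and samples, the median log2 fold change of the knob minus that of the arms stayed negative, with -0.24 to -0.15 when each replicate was left out. These values are medians over clusters of the same libraries. Taken library by library, the gap between knob and arms overlapped between the groups. The number of knob clusters called by edgeR was 0 in every alternative (0 to 0 with a replicate left out), and DESeq2 called 1, Cluster_10972. The count at an unadjusted p below 0.05, 19, was 15 to 19 with other scalings, no filter or DESeq2, and 8 to 17 when each replicate was left out. On the libraries numbered 1 and 2 alone it was 6 with a replicate block and 8 with no replicate block, where fewer libraries were tested. Scaling by library size alone moved the median of all clusters to -0.23. Of the tested alternatives, knob density over the arms fell short of the threshold without the arm clusters from 2.3 to 6.0 Mb (ratio 0.936). With a replicate left out the ratio was 0.865 to 0.903, with no test, while it was 0.634 for the window from 1.6 to 2.2 Mb. Without the top 10 knob clusters, and with all arm clusters kept, it was 0.517.

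Among 19 named clusters, 198 of 207 log2 fold changes under the alternatives had the same direction and the same side of the threshold. This number is no measure of stability. None of the clusters was called by edgeR, so the same side meant uncalled. They include the 5 lowest p in each direction, whose direction in these data could hardly turn. All 8 reversals fell on clusters named for other reasons. With each replicate left out, the log2 fold change spanned -0.33 to 2.40 at Cluster_10889, -0.25 to 1.42 at Cluster_10892, -10.35 (fitted against 0 counts) to 0.75 at Cluster_10895 and -0.045 to 0.31 at Cluster_11044, where it turned without memory replicate 2, and -0.10 to 0.026 at Cluster_10885 and -0.35 to 0.039 at Cluster_10984, where it turned without memory replicate 1. With library size alone it turned to -0.10 at Cluster_10900 and -0.11 at Cluster_11044. The cause was not tested. With 2 memory plants, exact permutation tests could not pass the threshold, and low clusters near 3 counts could not be compared.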
